A study of Mus musculus with 96 samples.

Results

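The 9 genes described here, of acyl-CoA hydrolysis and fatty acid conjugation, were followed in liver and islets of mice on a high-fat diet (HFD) or a chow diet (CD). They are the acyl-CoA thioesterase genes Acot1, Acot2, Acot3, Acot4, Acot9, Acot12 and Acot13 and the acyltransferase genes Acnat1 and Acnat2, taken by symbol as 9 of the 21990 genes of the deposited table, of which 20155 have values. The libraries come from 48 male C57BL/6N mice, bought at 4 weeks of age, with 4 mice on CD (13.5% fat) and 4 on HFD (60% fat) killed at each of weeks 4, 8, 12, 16, 20 and 24 of the diet. Islets and liver were taken from each mouse, which gives 96 RNA sequencing libraries in 24 groups of 4. The chow is not an ingredient-matched control for the HFD, so fat content and the other differences between the diets cannot be told apart. Values are FPKM, fragments scaled to transcript length and to the mapped fragments of the library, which are per length and can be set side by side between genes.

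Acyl-CoA thioesterases cut a fatty acyl-CoA into a free fatty acid and coenzyme A, and so set the balance between activated and free fatty acids in a compartment. ACOT1 is cytosolic and ACOT2 mitochondrial, while ACOT3 and ACOT4 are peroxisomal. ACOT9 is mitochondrial and, like ACOT12 and ACOT13, has the hotdog fold. ACOT12 is a cytosolic acetyl-CoA hydrolase, and ACOT13, also called Them2, prefers long-chain substrates and binds the phosphatidylcholine transfer protein PCTP. The ACNAT proteins are peroxisomal relatives of the bile acid conjugating enzyme BAAT, and ACNAT1 joins fatty acids to taurine. In liver several of these genes are known targets of PPAR-alpha, the nuclear receptor that fatty acids activate.

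The chr12 and chr4 genes lie in clusters in mouse build GRCm38. Acot2, Acot1, Acot4 and Acot3 follow each other on the plus strand of chr12 within 72540 bases (chr12:83987861-84060400), and Acnat2 and Acnat1 lie on the minus strand of chr4 within 111458 bases (chr4:49369861-49481318). Acot13 (chr13:24817955-24831489, minus strand) and Acot12 (chr13:91741505-91786148, plus strand) are far apart on chr13, and Acot9 is on chrX (chrX:155262443-155297654, plus strand). The clustered genes are paralogs. Of the 50-base stretches in the GENCODE vM21 transcripts of Acot2, 24.5% also occur in those of Acot1, and 13.6% of those of Acot1 occur in Acot2. Acnat1 shares 24.0% of its stretches with Acnat2, and Acnat2 shares 30.0% of its own with Acnat1. Acot3 shares 19.1% of its stretches with other genes, Acot9 15.2% with its relative Acot10 and Acot4 4.53% with other genes, while Acot12 and Acot13 share 0. How fragments from shared stretches were divided is not given in the sources used here, so the levels of all but Acot12 and Acot13 carry that uncertainty, least so by this share for Acot4.

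The 250 bases before the start site are shown for the chr12 genes, which varied together in liver, and for Acot12, from the RefSeq promoters of GRCm38.p6, 5′ to 3′ on the plus strand. They lie as follows: Acot1 at chr12:84009252-84009501, Acot2 at chr12:83987611-83987860, Acot3 at chr12:84051894-84052143, Acot4 at chr12:84038129-84038378 and Acot12 at chr13:91741271-91741520. Of the 9 genes, 8 had an entry in these promoters, and for Acot3 the first of its start sites is used. Capitals mark a stretch that differs at no more than 2 of the 12 fixed letters from AGGTCANAGGTCA, the direct repeat that PPAR and related receptors bind, on either strand.
Acot1: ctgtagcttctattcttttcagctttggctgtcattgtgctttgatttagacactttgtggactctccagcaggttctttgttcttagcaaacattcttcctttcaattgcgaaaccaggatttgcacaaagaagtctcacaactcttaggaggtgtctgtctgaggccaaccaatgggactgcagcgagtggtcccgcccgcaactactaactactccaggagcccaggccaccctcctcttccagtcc
Acot2: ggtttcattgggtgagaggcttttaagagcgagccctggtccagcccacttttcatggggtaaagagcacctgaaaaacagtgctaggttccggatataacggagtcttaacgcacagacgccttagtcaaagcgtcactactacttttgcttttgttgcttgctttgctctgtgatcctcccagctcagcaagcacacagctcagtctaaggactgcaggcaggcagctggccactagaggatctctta
Acot3: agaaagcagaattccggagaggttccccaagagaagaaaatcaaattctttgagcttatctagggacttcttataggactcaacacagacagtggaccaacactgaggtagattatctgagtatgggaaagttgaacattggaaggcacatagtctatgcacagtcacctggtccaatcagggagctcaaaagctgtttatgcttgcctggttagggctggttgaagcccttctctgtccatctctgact
Acot4: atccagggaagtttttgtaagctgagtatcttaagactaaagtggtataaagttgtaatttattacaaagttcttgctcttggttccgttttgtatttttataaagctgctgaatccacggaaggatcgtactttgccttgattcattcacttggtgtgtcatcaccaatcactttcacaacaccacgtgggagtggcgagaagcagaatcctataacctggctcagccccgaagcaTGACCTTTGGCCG
Acot12: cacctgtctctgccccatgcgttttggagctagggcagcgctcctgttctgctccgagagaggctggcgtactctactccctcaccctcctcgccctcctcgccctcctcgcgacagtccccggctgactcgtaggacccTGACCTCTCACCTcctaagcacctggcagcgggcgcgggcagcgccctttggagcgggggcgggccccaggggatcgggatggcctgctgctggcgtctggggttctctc
Such a stretch stood at position -13 of Acot4, on the opposite strand with 2 mismatches, and at position -110 of Acot12, on the opposite strand with 1 mismatch. It was in none of the windows of Acot1, Acot2, Acot3, Acot9, Acnat1 and Acnat2. Of 32851 windows of the same length, 3.24% held one, and 14.0% held the single site AGGTCA. These are matches of letters in a short window and say nothing about binding.

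In the livers the hepatocyte marker Alb was between 16733.8 and 46057.4 FPKM, and in the islets Ins2 was between 394273 and 707231 FPKM. Transcripts typical of the other organ were measurable in some libraries, and their source was not tested. Ins2 exceeded 100 FPKM in 5 livers (CD304 and CD306 at week 12, CD403 and CD407 at week 16, and HFD617 at week 24), with a highest value of 2467 FPKM, and Alb exceeded 10 FPKM in 6 islet libraries, with a highest value of 48.8 FPKM. Between 9347 and 11941 genes reached 1 FPKM in a library. In bulk tissue, fewer cells of a type and less RNA per cell cannot be told apart. Read counts were not used here, so no counting interval is given, and each value has 2 decimals.

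In CD mice, 8 of the 9 genes differed between the tissues by limma on log2(FPKM + 1), with 7 higher in liver and only Acot9 higher in islets. This has to be read against the background of a comparison in which 95.4% of all 13074 tested genes were called at an adjusted p under 0.05. Acot3, Acot4, Acot12 and Acnat1 were under 1 FPKM in all 24 CD islet libraries and passed the level filter through the livers alone. Whether these genes were tested thus depended on the liver level, and their calls and p-values are no separate support for a tissue difference. The order of the mean levels over 24 CD livers was Acot13 at 56.3 ± 8.23 FPKM (SD, n = 24), Acot12 at 44.1 ± 9.57, Acot1 at 36.9 ± 39.4, Acnat2 at 35.5 ± 25.2, Acnat1 at 26.8 ± 8.35, Acot4 at 20.9 ± 11.1, Acot3 at 18.3 ± 17.8, Acot2 at 4.30 ± 4.26 and Acot9 at 1.37 ± 0.257. Neighbours in this order from Acot12 down to Acot3 differed by less than the larger of their SDs. In the 24 CD islet libraries the order was different, with Acot13 at 31.1 ± 3.30 FPKM, Acot2 at 2.996 ± 0.490, Acot9 at 2.94 ± 0.451, Acnat2 at 2.29 ± 1.14, Acot1 at 1.09 ± 0.459 and Acot4 at 0.447 ± 0.123. Acot2, Acot9 and Acnat2 differed there by less than the SD of Acnat2. Acnat1 did not exceed 0.26 FPKM in any CD islet library, Acot3 did not exceed 0.18 and Acot12 did not exceed 0.13, against liver levels of up to 44.3, 66.2 and 61.4 FPKM in CD mice.

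On the log2(FPKM + 1) scale the liver minus islet difference in CD mice was 5.42 ± 0.0455 (SE) for Acot12, with an adjusted p of 5.66e-52, and -0.73 ± 0.0388 for Acot9, with an adjusted p of 1.37e-21. Acot13, the one thioesterase that was abundant in both tissues, differed by 0.83 ± 0.0434 (adjusted p = 1.04e-21). Acot2 did not pass, at 0.10 ± 0.143 with a 95% interval from -0.19 to 0.39. The median of all tested genes was -0.66 on this scale and -0.30 after median ratio scaling, and Acot2 passed under that scaling. With the insulin genes left out of the islet total the median was -1.24, and Acot2 passed there too. These scalings moved the median of all genes in opposite directions, so no direction is given for Acot2.

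Under HFD, Acot1, Acot2, Acot12 and Acnat2 rose in liver at week 8, the week with the most calls among the 9 genes. These 4 of 9 genes stand beside a background of 7.49% of 10034 genes called at that week, and all 4 were higher in HFD mice. The median difference of the 9 genes was 1.40 on the log2(FPKM + 1) scale, against 0.04 for all genes tested.

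**Figure D1:**
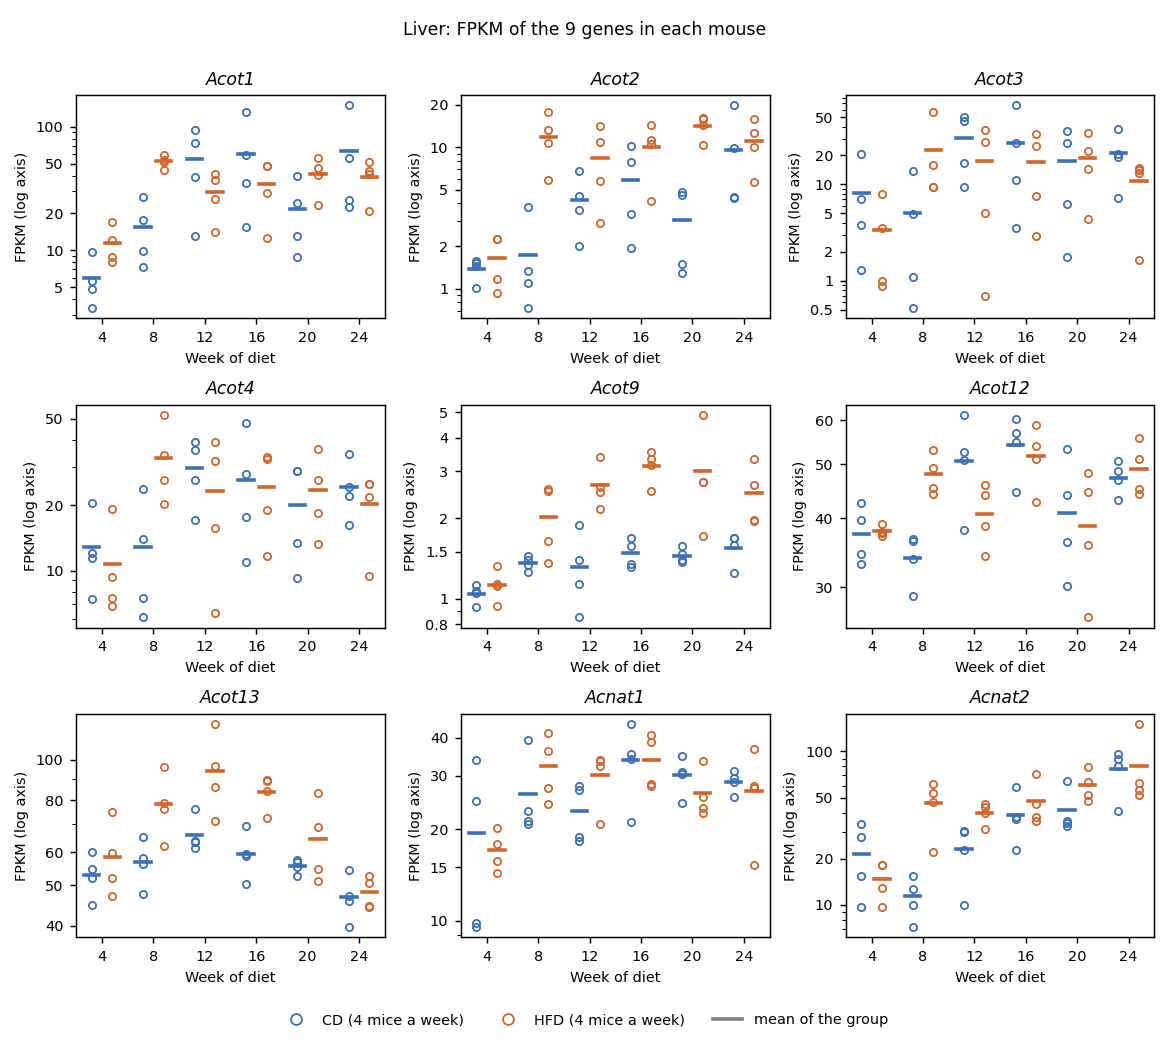
FPKM of each gene in each liver (log axis) by week of diet, CD in blue and HFD in orange, 4 mice a group, with a bar at the group mean. At week 8 the HFD livers lie above all CD livers for Acot1, Acot2, Acot12 and Acnat2, and from week 12 on for Acot9, while the points of Acot3 spread over more than a 10-fold range in several groups. They also lie above them for Acnat2 at week 12, Acot13 at week 16 and Acot2 at week 20. The share of all genes without overlap is not given here.

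Acot1, the cytosolic enzyme, was at 27.2, 17.5, 9.93 and 7.38 FPKM in the 4 CD livers of week 8 and at 44.6, 59.6, 53.5 and 51.8 FPKM in the HFD livers. The groups did not overlap, and the HFD livers were close to each other. The means were 15.5 ± 8.88 and 52.4 ± 6.17 FPKM (SD, n = 4 each), a ratio of 3.38, and the log2 difference was 1.84 ± 0.343 (SE; limma adjusted p = 0.0179). Acot2, the mitochondrial enzyme, was at 3.77, 1.33, 1.09 and 0.73 FPKM in CD livers and at 10.7, 17.7, 13.1 and 5.85 FPKM in HFD livers. All 4 HFD livers exceeded the highest CD liver, with a ratio of means of 6.85 and a log2 difference of 2.26 ± 0.380 (adjusted p = 0.0125). Since 1 FPKM is added before the log, the log2 difference understates the change of a gene as low as Acot2.

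Acnat2 was at 15.5, 12.7, 10.0 and 7.19 FPKM in CD livers of week 8 and at 61.4, 53.9, 47.1 and 22.0 FPKM in HFD livers. Again there was no overlap. The ratio of means was 4.06 and the log2 difference 1.88 ± 0.334 (adjusted p = 0.0146). Its neighbour Acnat1 was at 23.0, 39.2, 20.8 and 21.3 FPKM in the CD livers and at 41.5, 36.0, 27.3 and 24.1 FPKM in the HFD livers. These ranges overlapped, and its difference of 0.31 ± 0.231 did not pass (adjusted p = 0.469). Acot12, the acetyl-CoA hydrolase, moved less, from 33.9 ± 3.59 to 48.0 ± 4.05 FPKM, a ratio of 1.41, with every HFD liver at 44.3 FPKM or more and no CD liver above 36.7 FPKM (log2 difference 0.49 ± 0.0963, adjusted p = 0.0194).

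The peroxisomal Acot3 and Acot4 had large mean differences at week 8 but did not pass. Acot3 was at 13.8, 1.08, 4.92 and 0.52 FPKM in CD livers and at 9.51, 15.8, 56.7 and 9.34 FPKM in HFD livers, and its log2 difference of 2.14 ± 0.827 had an adjusted p of 0.174. Acot4 was at 23.7, 7.45, 14.0 and 6.08 FPKM in CD livers and at 26.1, 34.2, 52.1 and 20.2 FPKM in HFD livers, with a difference of 1.40 ± 0.434 (adjusted p = 0.0984). In both genes CD203 lay within the HFD range. The adjusted p-values of week 8 are close to the threshold: without CD207 only Acot12 was called, without HFD213 only Acot2, without HFD212 Acot2 and Acot12, and without CD205 Acot12 was lost. Without CD203 Acot4 was also called, and without HFD217 the count was 6, with Acot9 and Acot13 added. The share of all genes moved too, from 7.49% to 3.25% without CD207 and to 11% without HFD217. With 1 library left out, the differences of the 4 called genes lay between 1.57 and 2.15 for Acot1, 2.05 and 2.57 for Acot2, 0.42 and 0.53 for Acot12 and 1.70 and 2.20 for Acnat2.

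Acot2 differed a second time at week 20. It was at 1.49, 1.30, 4.59 and 4.81 FPKM in CD livers and at 15.9, 10.3, 16.0 and 14.4 FPKM in HFD livers. The lowest HFD liver was above the highest CD liver, the ratio of means was 4.64, and the log2 difference was 2.02 ± 0.328 (adjusted p = 0.0207). It was the 1 gene of the 9 called at that week, with a background of 2.47%, and without HFD517 its adjusted p was 0.0619. Acot1 at week 20 was at 13, 8.75, 24.1 and 40.2 FPKM in CD livers and at 46.4, 40.4, 23.2 and 56.1 FPKM in HFD livers, a difference of 1.07 ± 0.464 that did not pass (adjusted p = 0.327).

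At weeks 12, 16 and 24 the mean of Acot1 was lower in HFD than in CD livers, with ratios of 0.535, 0.573 and 0.625, but none of these differences passed. The CD livers of these weeks spread widely. At week 12 they were at 13.1, 94.4, 73.4 and 39.4 FPKM against 37.0, 25.8, 14.1 and 41.1 FPKM in HFD livers. At week 16 they were at 59.4, 131, 15.3 and 35.2 FPKM against 47.7, 48.5, 12.6 and 29.4 FPKM, and at week 24 at 25.5, 56.3, 149 and 22.6 FPKM against 21.0, 41.5, 43.6 and 52.2 FPKM. The HFD values lay inside the CD range at week 12, and at the other weeks all but the lowest did. Over the 6 weeks the mean diet effect of Acot1 was 0.37 with a 95% interval from -0.11 to 0.85.

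Acot9, a mitochondrial thioesterase and the lowest of the 9 in liver, was called at weeks 12 and 16. At week 4 CD livers were at 1.12, 0.93, 1.05 and 1.07 FPKM and HFD livers at 1.13, 1.32, 0.94 and 1.11 FPKM, which overlap. At week 12 they were at 1.13, 1.89, 0.85 and 1.39 FPKM against 2.63, 2.50, 2.16 and 3.39 FPKM, and at week 16 at 1.35, 1.31, 1.69 and 1.57 FPKM against 2.54, 3.16, 3.33 and 3.53 FPKM. There was no overlap at weeks 12, 16, 20 and 24, where the ratios of means were 2.03, 2.12, 2.08 and 1.60. The difference passed at week 12 (0.67 ± 0.149, adjusted p = 0.0247, where it was the 1 called member beside a background of 10.6%) and at week 16 (0.74 ± 0.101, adjusted p = 0.00254, background 7.43%). The called share of all genes itself moved with single libraries, and at week 12 it was 1.99% without CD307 and 20.9% without CD304. It lay between 3.25% and 11% at week 8, 3.07% and 15.2% at week 16, 0.762% and 7.85% at week 20 and 0.136% and 1.33% at week 24 with 1 library left out. The difference of Acot9 did not pass at week 20 (0.66 ± 0.198, adjusted p = 0.122) or week 24 (0.44 ± 0.139, adjusted p = 0.170).

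The week 12 call of Acot9 was lost without CD307 (adjusted p = 0.0763), CD308 (0.0610), HFD315 (0.0601) or HFD318 (0.0692), while the week 16 call held with each library left out. Over all weeks, markers of some other cells also had higher medians in HFD livers. The endothelial and ductal sums did not, with medians of 9.935 and 3.07 FPKM in CD and 9.72 and 2.62 FPKM in HFD livers. The summed adipocyte markers had a median of 8.00 FPKM (range 3.29 to 22.6) in 24 CD livers and 27.5 FPKM (10.5 to 76.1) in 24 HFD livers. All 6 markers are in the table, Fabp4 and Cfd carried the sum, Adipoq, Plin1 and Retn did not exceed 0.15 FPKM in any liver, and Lep was at 0 in all. The summed macrophage markers (5 of 5 detected) had medians of 59.4 FPKM (32.7 to 118.1) in CD and 88.4 FPKM (40.2 to 155) in HFD livers. Their medians in CD and HFD livers were 59.43 and 52.675 FPKM at week 8 and 95.97 and 96.145 FPKM at week 24. The summed stromal markers (4 of 4 detected) ran from 39.0 to 71.6 FPKM in CD and from 74.2 to 113.5 FPKM in HFD livers at week 12, and from 52.2 to 63.2 FPKM and 85.2 to 122 FPKM at week 16. At both weeks the stromal and adipocyte sums did not overlap between the diets, and the macrophage sums overlapped at week 16. Within groups, Acot9 correlated with the adipocyte sum at r = 0.56, with the stromal sum at 0.44 and with the macrophage sum at 0.20 over 48 livers, as a description. The number of genes at 1 FPKM or more in a library correlated with Acot9 at r = 0.57. The part of these cells and of that number in the Acot9 difference was not tested.

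Acot13, which binds PCTP, had higher means in HFD livers, by ratios of means of 1.38, 1.42 and 1.41 at weeks 8, 12 and 16, with overlap between the groups at weeks 8 and 12. At week 16 CD livers were at 69.4, 58.7, 59.4 and 50.5 FPKM and HFD livers at 72.6, 89.5, 84.3 and 89.1 FPKM, without overlap, and the difference of 0.49 ± 0.115 passed (adjusted p = 0.0317). It was lost in 6 of 8 fits with 1 library left out, with adjusted p up to 0.0993, and without CD403 and CD407, whose livers held over 100 FPKM of Ins2 (0.38, adjusted p = 0.197). At weeks 20 and 24 the ratios were 1.16 and 1.03 and the groups overlapped. Within groups Acot13 correlated with the stromal sum at r = 0.45 and with the number of genes at 1 FPKM or more at r = 0.49, and the stromal and adipocyte sums of week 16 separated the diets as given for Acot9. Their part in the Acot13 difference was not tested.

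At week 4, 0 of the 9 genes were called in liver, where 0.0506% of all genes were called and 1271 of 9875 had an unadjusted p under 0.05. Among the 9, only Acot1 had an unadjusted p under 0.05 (0.0146), at 3.41, 4.83, 9.72 and 5.69 FPKM in CD and 17.0, 8.86, 12.2 and 8.01 FPKM in HFD livers. At week 24, 0 were called as well, beside a background of 0.837%, and Acot9 alone had an unadjusted p under 0.05 (0.0102). With all 12 groups of liver in 1 fit, Acot13 was also called at week 12 and Acot9 at week 20. The calls of all genes rose there too, from 1059 to 1626 at week 12 and from 252 to 1004 at week 20. Without CD304, Acot12, Acot13 and Acnat2 were also called at week 12, where 20.9% of all genes were. In the main fit of that week the Acnat2 groups did not overlap (ratio of means 1.72, limma adjusted p = 0.114).

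**Figure D2:**
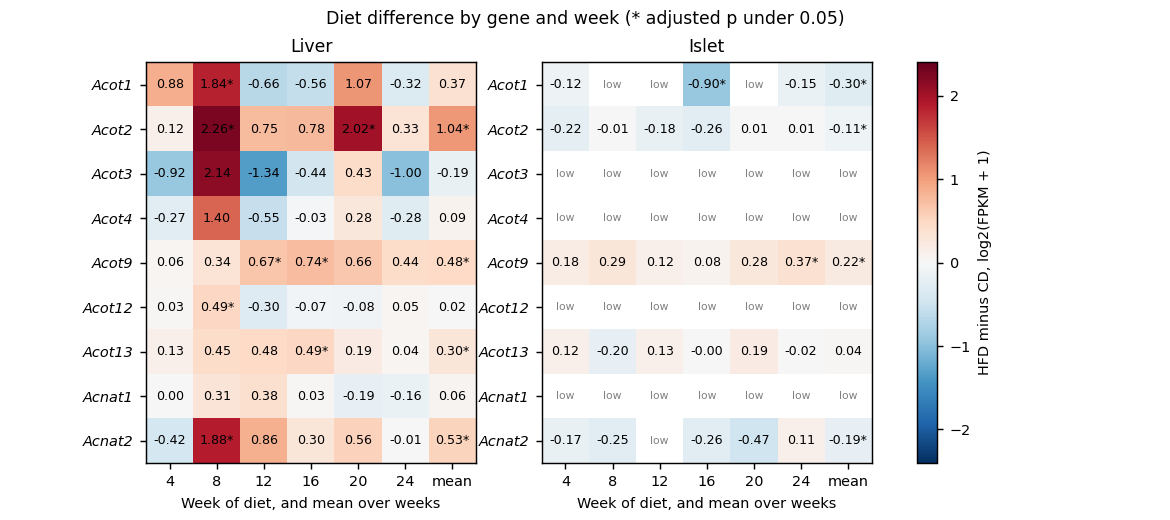
Difference HFD minus CD in log2(FPKM + 1) for each gene (rows) at each week and as the mean over the 6 weeks (columns), in liver and islets, with an asterisk where the limma adjusted p is under 0.05 and "low" where the gene was under the level filter. The liver column of week 8 holds 4 asterisks with values from 0.49 to 2.26, and among the weeks of the islet panel there are calls at week 16 (Acot1, -0.90) and week 24 (Acot9, 0.37).

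Averaged over the 6 weeks in 1 fit of 48 livers, Acot2, Acot9, Acot13 and Acnat2 were higher in HFD mice. That is 4 of 9, where 42.6% of 10879 genes were called, so the share of the 9 is near the background. The mean diet effects were 1.04 ± 0.183 for Acot2 (adjusted p = 1.80e-05), 0.48 ± 0.0610 for Acot9 (4.96e-08), 0.30 ± 0.0601 for Acot13 (0.000121) and 0.53 ± 0.152 for Acnat2 (0.00496). All 4 calls held with each of the 48 libraries left out and without the 5 livers with over 100 FPKM of Ins2. The others did not pass, with 95% intervals from -0.998 to 0.62 for Acot3, -0.31 to 0.49 for Acot4, -0.10 to 0.14 for Acot12 and -0.17 to 0.29 for Acnat1. Hence a mean effect as large as that of Acot2 lay outside the intervals of Acot1, Acot3, Acot4, Acot12 and Acnat1, since none of their upper bounds reached 1.04.

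The test of whether the diet effect changed over the weeks was passed by 0 of the 9 genes in liver, with a background of 1.46%. Of the 10879 genes, 1606 had an unadjusted p under 0.05, among them Acot1 (0.0178), Acot2 (0.00589), Acot9 (0.0209), Acot12 (0.0181) and Acnat2 (0.00222, adjusted p = 0.0824). The week 8 calls of these genes are therefore not shown to differ from the other weeks at the adjusted threshold. Without CD104, CD304, HFD217 or HFD614, the count was 1, which was Acnat2.

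The levels also moved over the weeks in CD mice themselves. Acot1, Acot2, Acot12, Acnat1 and Acnat2 differed between weeks in CD livers (5 of 9, background 55.0%). Mean Acnat2 was 21.6, 11.4, 23.2, 38.8, 41.5 and 76.8 FPKM from week 4 to week 24 (adjusted p = 1.61e-05). The mean of the last CD group was thus above that of the HFD group of week 8, at 46.1 FPKM. These groups overlapped, at 40.72 to 96.47 FPKM and 21.95 to 61.36 FPKM. Mean Acot1 was 5.91, 15.5, 55.1, 60.3, 21.5 and 63.3 FPKM (adjusted p = 0.000349), and mean Acot2 was 1.39, 1.73, 4.22, 5.83, 3.05 and 9.59 FPKM (adjusted p = 0.00301). Both were lowest at weeks 4 and 8. The Acnat1 call (adjusted p = 0.0492) was lost in 17 of 24 fits with 1 library left out. Each week is a separate set of 4 mice of 1 age, so age, time on the diet and the day of the kill cannot be told apart.

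Mice of 1 group differed widely in the chr12 genes. Within diet and week groups, the SD of log2(FPKM + 1) in liver was 1.41 for Acot3, 0.84 for Acot1, 0.70 for Acot4 and 0.65 for Acot2, against a median of 0.18 over 10879 genes. For Acot3 this was a wider spread than in 99.8% of tested genes, for Acot1 99.1%, for Acot4 98.5% and for Acot2 98.2%. Acnat2 (0.54) and Acnat1 (0.40) were wider than 97.1% and 93.3%, while Acot9, Acot12 and Acot13, at 0.21 each, were wider than 63.3% to 64.6%. Acot3 ranged from 0.70 to 36.8 FPKM among the HFD livers of week 12 and from 1.08 to 13.8 among 3 of the CD livers of week 8, whose lowest was 0.52.

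The same mice were high in several of these genes. Measured as deviations from the mean of the 4 mice of a group, Acot3 and Acot4 correlated at r = 0.98 over 48 livers, and Acot4 was the most similar of 10879 genes to Acot3 and the reverse. After each other, both were most like Slc16a5 (r = 0.85 with Acot3, 0.82 with Acot4) and Nr1i3, the xenobiotic receptor CAR (0.83 and 0.82). Acot1 and Acot2 correlated at r = 0.82, Acot2 and Acot4 at 0.79, and Acot1 and Acot4 at 0.72. Acnat1 and Acnat2 correlated at r = 0.60. All of these points share the library and the FPKM total, and for Acot1 with Acot2 and for Acnat1 with Acnat2 also part of the transcript sequence, so they are given as a description. For Acot3 and Acot4, GENCODE transcripts of Acot4 share 4.53% of their 50-base stretches with any gene.

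**Figure D3:**
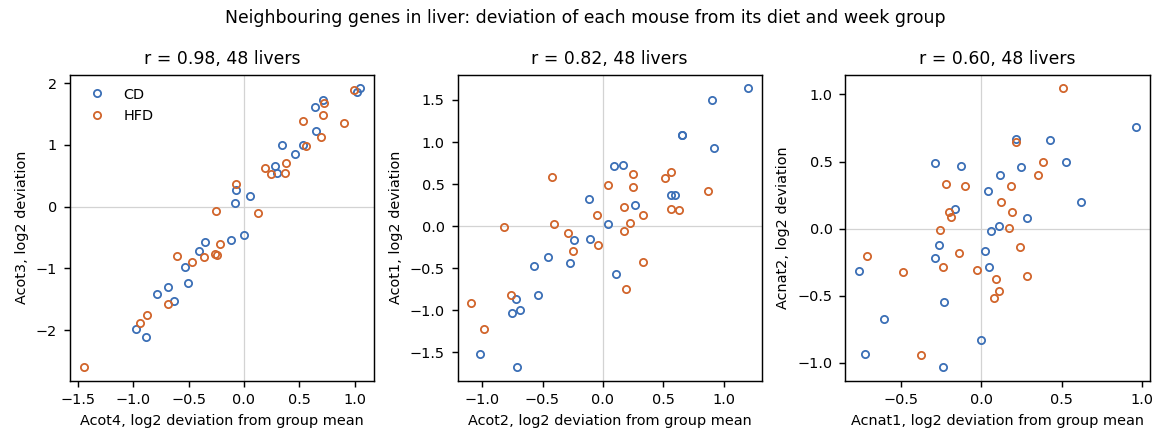
Deviation of each of 48 livers from the mean of its diet and week group, in log2(FPKM + 1), for neighbouring gene pairs, CD in blue and HFD in orange. The points of Acot3 and Acot4 follow a narrow line in both diets (r = 0.98), those of Acot1 and Acot2 a wider band (r = 0.82), and those of Acnat1 and Acnat2 scatter more (r = 0.60).

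The genes most like each member by the same measure differed between members. Acot1 was most like Ehhadh, the peroxisomal bifunctional enzyme (r = 0.83), Pex11a, a peroxisome division factor (0.83), and Cpt2, a carnitine palmitoyltransferase (0.82). Acot2 was most like the carnitine transporter Slc22a5 (0.85), Pex11a (0.84) and Rab30 (0.82). Acot12 was most like Dcaf6 (0.87), Acnat1 like Evi5 (0.89), Acnat2 like the transporter Slc17a1 (0.74), Acot13 like Aldh5a1 (0.79) and Acot9 like Cttn, an actin-binding protein (0.79).

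Genes around the 9 in acyl-CoA metabolism were counted by list. Of all genes tested in liver at week 8, 6.17% were called higher and 1.33% lower. Of 26 PPAR-alpha target and fatty acid oxidation genes, 21 rose and 0 fell in liver at week 8, with a median of 0.95 on the log2(FPKM + 1) scale against 0.04 for all genes. Cd36, a fatty acid receptor, was higher by 3.29 ± 0.417 (adjusted p = 0.00554), Vnn1, which releases pantothenate for coenzyme A synthesis, by 3.39 ± 0.254 (0.000686), Fgf21, a liver hormone, by 2.69 ± 0.594 (0.0366) and Aldh3a2, a fatty aldehyde dehydrogenase, by 2.05 ± 0.192 (0.00188). Of 20 genes of peroxisomal oxidation, 13 rose and 0 fell (median 0.75), among them Ehhadh by 1.23 ± 0.234 (0.0180), Hsd17b4, another bifunctional enzyme, by 0.87 ± 0.104 (0.00368) and Acox2, the branched-chain oxidase, by 0.40 ± 0.0892 (0.0309).

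At the other weeks the counts were lower. The PPAR-alpha list had 4, 3, 4 and 1 genes higher and 0 lower at weeks 12, 16, 20 and 24 and 0 called at week 4, and the peroxisomal list had 4, 1, 1 and 0 higher at weeks 12 to 24. Of all genes, 9.42%, 6.74%, 1.73% and 0.65% were called higher at weeks 12 to 24. The shares of the PPAR-alpha list were 15.4%, 11.5%, 15.4% and 3.85%, and those of the peroxisomal list 20%, 5%, 5% and 0. Cd36 was called at weeks 8, 12, 16, 20 and 24 and Vnn1 at weeks 8, 12 and 20. Of 16 acyl-CoA synthetase genes, which make the substrates of the thioesterases, 13 were tested in liver and 4 rose at week 8 (6.17% of all genes did), among them Acsl1 by 1.00 ± 0.120 (adjusted p = 0.00368), Acsm3 by 0.85 ± 0.0871 (0.00241) and Acss3 by 1.40 ± 0.239 (0.0120). Acss2, the cytosolic acetyl-CoA synthetase, was lower at week 20 and had a mean diet effect of -0.40 ± 0.10 (0.00146).

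Of the other thioesterase and N-acyltransferase genes, with their partner Pctp, 2 of 9 tested (of 13 listed) rose in liver at week 8, against 6.17% of all genes, and 0 were called at the other weeks. These were Pctp, the partner of ACOT13, by 1.27 ± 0.225 (adjusted p = 0.0135), and the peroxisomal thioesterase Acot8 by 0.69 ± 0.103 (0.00725). By the rule for named genes, Acot11 and Pm20d1 follow, with mean diet effects of 0.29 ± 0.0826 (adjusted p = 0.00406) and 0.08 ± 0.0379 (0.0979). Of 10 genes of coenzyme A synthesis and hydrolysis, 1 rose and 1 fell at week 8, counts too small to set apart from the 6.17% and 1.33% of all genes. Ppcs, of the synthesis pathway, was higher by 0.28 ± 0.0671 (0.0413), and Nudt7, the peroxisomal coenzyme A diphosphatase, differed by -1.34 ± 0.336 (0.0488). Coasy and Ppcdc, both of synthesis, had mean diet effects of 0.17 ± 0.0480 (adjusted p = 0.00414) and 0.07 ± 0.0526 (0.297).

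**Figure D4:**
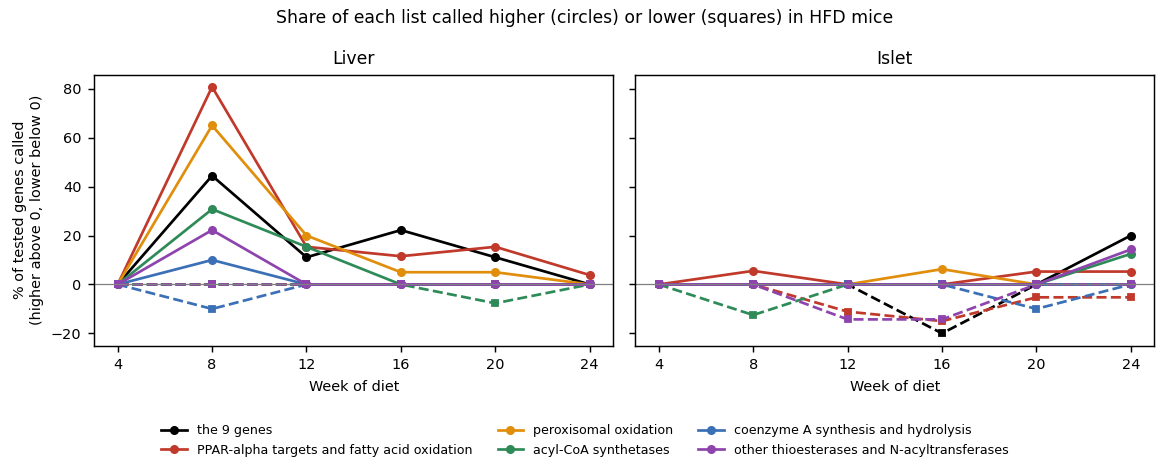
Percent of the tested genes of each list called higher (circles, solid lines, above 0) or lower (squares, dashed lines, below 0) in HFD mice, by week of diet, in liver and islets. In liver the PPAR-alpha list reaches 80.8%, the peroxisomal list 65.0% and the 9 genes 44.4% at week 8, and all 3 are at 22.2% or less at the other weeks.

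In islets, Acot3, Acot4, Acot12 and Acnat1 stayed under 1 FPKM in all 48 libraries and were not tested, and Acot1, Acot2, Acot9, Acot13 and Acnat2 were tested where they passed the level filter. The highest values of the untested genes were 0.18 FPKM for Acot3, 0.86 for Acot4, 0.24 for Acot12 and 0.26 for Acnat1. The number of the 9 tested was 5, 4, 3, 5, 4 and 5 from week 4 to week 24.

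Acot1 fell in HFD islets at week 16. CD islets were at 2.09, 1.40, 1.29 and 1.60 FPKM and HFD islets at 0.52, 0.27, 0.36 and 0.37 FPKM. The highest HFD value was below the lowest CD value, the ratio of means was 0.238, and the log2 difference was -0.90 ± 0.107 (limma adjusted p = 9.95e-05). It was the 1 member called of 5 tested, with a background of 8.45%. Every HFD islet was under 1 FPKM, so Acot1 passed the level filter at week 16 through the CD islets alone. Whether it was tested thus depended on the CD level. With no filter it was called as well. At week 12 the CD islets were at 0.85, 2.34, 1.33 and 1.06 FPKM and the HFD islets at 0.63, 0.82, 0.41 and 0.56 FPKM, again without overlap, but with only 3 libraries at 1 FPKM or more Acot1 was under the filter. With all 12 islet groups in 1 fit it was called at that week. At weeks 4, 8, 20 and 24 the groups overlapped, with ratios of 0.852, 1.23, 0.730 and 0.876.

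**Figure D5:**
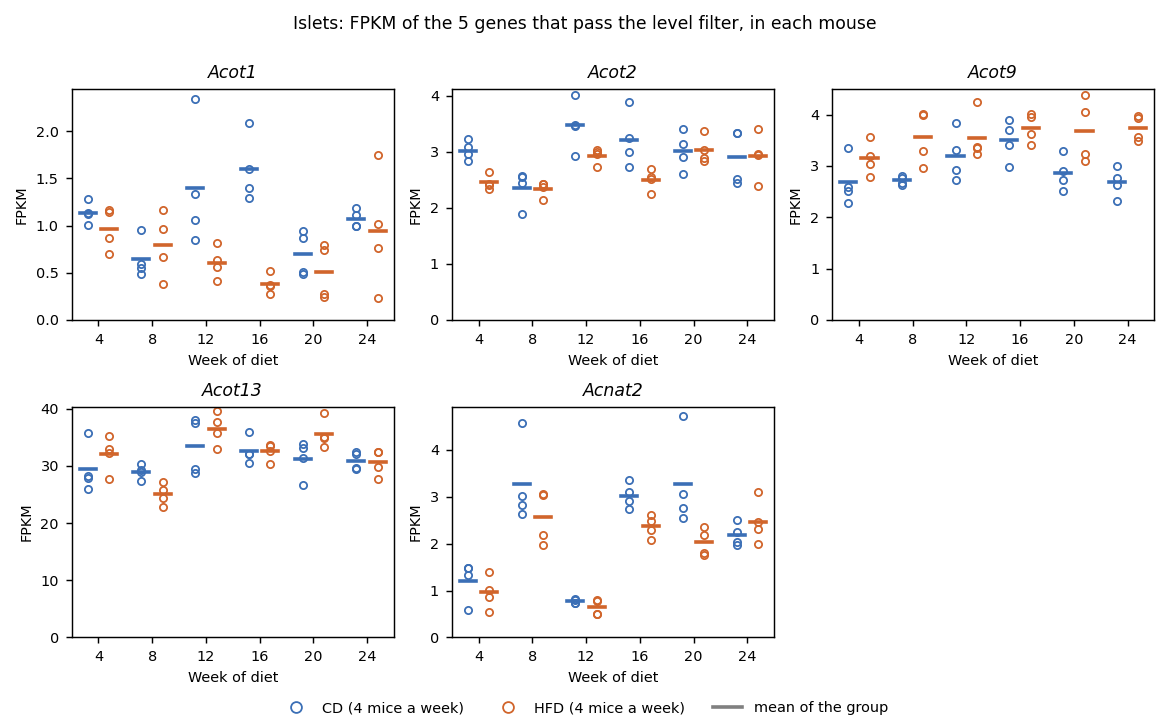
FPKM of the 5 genes that pass the level filter in each islet library, by week of diet, CD in blue and HFD in orange, 4 mice a group, with a bar at the group mean. Acot1 is below all CD islets in HFD islets at weeks 12 and 16, Acot9 is above them at weeks 8 and 24, and Acnat2 is near 0.7 FPKM in both diets at week 12. HFD islets are also below all CD islets for Acot2 at weeks 4 and 16, Acnat2 at weeks 16 and 20 and Acot13 at week 8.

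The week 16 call of Acot1 held with each library left out (adjusted p up to 0.00146). The diet effect of Acot1 also changed over the weeks in islets (adjusted p = 0.0384, the 1 member called of 5, background 4.25%), but this call was lost in 10 of 48 fits with 1 library left out (CD205, CD208, CD401, CD407, HFD212, HFD213, HFD316, HFD414, HFD416 and HFD418), with a pseudocount of 0.1, without the filter and without the 6 islet libraries with over 10 FPKM of Alb. Within groups Acot1 in islets correlated with Rapgef3 at r = 0.60 and with Smarcd3 at r = 0.59 over 48 libraries, which are among the 3 genes most like it.

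The genes of the PPAR-alpha list called at the most weeks in islets included Pdk4, which restrains pyruvate oxidation. Pdk4 was lower in HFD islets at weeks 12, 16, 20 and 24, by -1.51 ± 0.192, -1.86 ± 0.135, -1.29 ± 0.166 and -1.58 ± 0.228 (adjusted p between 6.38e-06 and 0.00462). Plin2, a lipid droplet protein, and Cd36 were higher, with mean diet effects of 0.32 ± 0.0634 (9.21e-05) and 0.52 ± 0.0821 (3.98e-06). At week 16, 3 of 20 tested genes of this list fell and 0 rose, where 5.15% of all genes were called lower and 3.30% higher, with a median of -0.05 against 0.01 for all genes. Of the other lists, Acot7, a neuronal thioesterase, was lower at weeks 12 and 16 (-0.44 ± 0.129, adjusted p = 0.0454, and -0.81 ± 0.109, 0.000277), and Acot11 was higher at week 24 (0.41 ± 0.0979, 0.0164). Single genes were called in the synthetase (Acss2 and Acsl5), peroxisomal (Scp2) and coenzyme A (Pank3) lists, each at 1 week. Averaged over the weeks, 38.6% of all genes were called in islets. Of the lists, 5 of 18 peroxisomal, 3 of 10 coenzyme A and 4 of 8 synthetase genes were called. So were 2 of 7 other thioesterase and N-acyltransferase genes and 7 of 21 of the PPAR-alpha list. These counts do not set the lists apart, and leaving out the insulin genes moved the median of all genes by 0.13. In this mean, Amacr, a racemase of branched-chain acyl-CoA, was higher in HFD islets by 0.21 ± 0.0457 (adjusted p = 0.000423), Scp2 by 0.13 ± 0.0276 (0.000223) and Acaa1a, a peroxisomal thiolase, by 0.09 ± 0.0302 (0.0205). The transporter Abcd2 was lower, at -0.18 ± 0.0355 (0.000124). The fatty acid transporter and synthetase Slc27a4 was higher by 0.13 ± 0.0301 (0.000673), Acsl3 by 0.13 ± 0.0377 (0.00567), Acss2 by 0.18 ± 0.0347 (7.16e-05), Pctp by 0.13 ± 0.0346 (0.00327), Nudt8 by 0.14 ± 0.0505 (0.0283) and Coasy by 0.10 ± 0.0232 (0.000706), and Ppcdc was lower, at -0.11 ± 0.0391 (0.0194).

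At week 16 the acinar markers (8 of 8 detected) ran from a sum of 15674 to 29674 FPKM in CD islets and from 3727 to 11713 FPKM in HFD islets. The alpha-cell markers (3 of 3) ran from 8533 to 13214 FPKM in CD and from 1661 to 3599 FPKM in HFD islets. The delta-cell markers (2 of 2) ran from 2117 to 2838 FPKM in CD and from 495 to 1109 FPKM in HFD islets, and the beta-cell markers (8 of 8) from 596344 to 686215 FPKM and from 728013 to 918871 FPKM. None of these 4 sums overlapped between the diets. Within groups, Acot1 correlated with the adipocyte sum at r = 0.35, the acinar sum at 0.33, the stromal sum at 0.31, the alpha-cell sum at -0.04 and the delta-cell sum at -0.08. In islets the adipocyte sum is carried by Fabp4 alone. The part of these cells in the Acot1 difference was not tested.

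Acot9 was higher in HFD islets at week 24, as it was in liver at earlier weeks. CD islets were at 2.32, 2.63, 3.0 and 2.76 FPKM and HFD islets at 3.57, 3.94, 3.98 and 3.48 FPKM, without overlap, a ratio of 1.40 and a log2 difference of 0.37 ± 0.0938 (adjusted p = 0.0234). It was the 1 member called of 5 tested, with a background of 8.30%, which was 4.77% without HFD616. It was lost after median ratio scaling (0.30, adjusted p = 0.0562) and without CD601 (0.0603), CD605 (0.0563), HFD614 (0.0687) or HFD616 (0.0650). At week 24 the adipocyte marker sum ran from 25.1 to 37.9 FPKM in CD islets and from 44.5 to 81.3 FPKM in HFD islets. Fabp4 alone carried this sum. Adipoq, Plin1 and Lep were at 0.09 FPKM or less in every islet library, Retn at 0.07 or less and Cfd at 0.12 or less. The macrophage sum overlapped between the diets (8.14 to 9.76 and 8.31 to 12.4 FPKM). The alpha-cell sum ran from 6685 to 12554 FPKM in CD and from 951 to 1964 FPKM in HFD islets, and the delta-cell sum from 2264 to 2896 FPKM in CD islets against a median of 351 FPKM in HFD islets, without overlap for either sum. Within groups Acot9 correlated with the adipocyte and macrophage sums at r = 0.52 each, with the number of genes at 1 FPKM or more at 0.42, with the alpha-cell sum at -0.32 and with the delta-cell sum at -0.47. Their part in the difference was not tested.

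At weeks 4, 8, 12 and 20, 0 of the tested members were called in islets, where the backgrounds were 0, 5.27%, 4.53% and 4.74%. At week 4 0 of 11569 genes were called by limma and 854 had an unadjusted p under 0.05, among them Acot2, at 2.83, 3.08, 3.22 and 2.95 FPKM in CD and 2.41, 2.64, 2.33 and 2.43 FPKM in HFD islets. Unadjusted p-values under 0.05 were found for Acot9 (0.00966) and Acot13 (0.00973) at week 8, where Acot13 was lower in HFD islets without overlap, at 24.4, 25.8, 22.8 and 27.2 FPKM against 29.3, 28.9, 27.4 and 30.3 FPKM. At week 20 they were found for Acnat2 (0.00818), Acot9 (0.0268) and Acot13 (0.0469), and at week 12 for 0 of the 3 tested. Of all genes, 3362, 1968 and 3004 had an unadjusted p under 0.05 at weeks 8, 12 and 20. With 1 library left out, the called share of all genes lay between 0.987% (without CD208) and 15.2% (without HFD217) at week 8, 3.05% and 7.19% at week 12, and 1.19% (without HFD517) and 18.7% (without HFD511) at week 20. Acot2 was 6.85 times as high in HFD livers as in CD livers at week 8, when islets were at 2.56, 2.44, 2.55 and 1.89 FPKM in CD and 2.42, 2.37, 2.42 and 2.14 FPKM in HFD mice.

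Averaged over the weeks, 4 of the 5 tested members were called in islets, beside a background of 38.6%. Acot9 was higher, by 0.22 ± 0.0394 (adjusted p = 2.55e-05), and Acot1 was lower, by -0.30 ± 0.0671 (0.000484). Acnat2 was lower, by -0.19 ± 0.0569 (0.00670), and Acot2 by -0.11 ± 0.0357 (0.0142). Acot13, the most abundant, did not pass, at 0.04 with a 95% interval from -0.04 to 0.11. The calls of Acot1 and Acot9 held under every alternative that was run. Those of Acot2 and Acnat2 were lost when the insulin genes, which by an estimate from the longest transcript take between 32.4% and 56.4% of islet fragments, were left out of the library total (0.00 and adjusted p = 0.991 for Acot2, -0.12 and 0.0774 for Acnat2), and Acot2 was lost without the 6 libraries with over 10 FPKM of Alb (0.0595). Leaving the insulin genes out moved the median of all genes by 0.13 for this mean effect, and by 0.32 and 0.22 at weeks 12 and 16.

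Acnat2 in islets differed between the weeks in CD mice. Its CD means were 1.21, 3.26, 0.77, 3.03, 3.27 and 2.19 FPKM and its HFD means 0.96, 2.56, 0.64, 2.37, 2.03 and 2.47 FPKM from week 4 to week 24. Both diets were lowest at week 12, at 0.73, 0.82, 0.74 and 0.80 FPKM in CD and 0.80, 0.49, 0.49 and 0.78 FPKM in HFD islets. The difference between weeks in CD islets had an adjusted p of 1.56e-11. It was 1 of 4 members called in that comparison, with Acot1, Acot2 and Acot9, where 77.5% of all genes were called. Each week's islets are a separate set of mice, and a batch by week cannot be told apart from age.

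The diet effect was more positive in liver than in islets for 5 of the 9 genes, with a background of 43.9%. Of all genes, 35.5% were called in that direction, so the count alone does not set the 9 genes apart. Liver minus islet, the mean diet effect differed by 1.15 ± 0.189 for Acot2 (adjusted p = 7.50e-07), 0.72 ± 0.165 for Acnat2 (0.000270), 0.67 ± 0.250 for Acot1 (0.0230), 0.26 ± 0.0725 for Acot9 (0.00218) and 0.26 ± 0.0704 for Acot13 (0.00191). Acot2 and Acnat2 had effects of opposite sign in the tissues, higher in HFD livers and lower in HFD islets in the main scaling. Acot9 was higher under HFD in both. Leaving the insulin genes out of the islet total ended the calls of Acot9 (0.11, adjusted p = 0.256) and Acot13 (0.11, 0.235), and median ratio scaling that of Acot1 (0.58, 0.0581). For Acot12 the difference was 0.00 with an interval from -0.12 to 0.13, with islet levels of 0.24 FPKM or less.

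Across the 48 mice, within groups, Acot1 in liver and Acot1 in islets of the same mouse correlated at r = 0.33 and Acot2 at 0.29, and the other 7 genes lay between -0.31 (Acot13) and 0.27 (Acnat1), as a description.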

How the data were processed

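Islet and liver RNA of 48 mice was sequenced as 96 poly(A) libraries. The authors deposited 1 table of FPKM values per gene and library, with 2 decimals. The submitters' processing notes name HISAT2 2.0.4, Bowtie2 2.2.5, RSEM 1.1.12, DESeq2 and GRCm38.p5, with no role given, and read totals and the handling of shared fragments are not given in the sources used here. The table also holds the authors' own averages, fold changes, p- and q-values and module columns, none of which were used. No count test was run.

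Genes were matched by symbol. FPKM values were tested with limma 3.58.1 in R 4.3.3 on log2(FPKM + 1), with trend and robust variances, for genes at 1 FPKM or more in at least 4 libraries. P-values were adjusted by Benjamini-Hochberg over all genes tested, and called means an adjusted p under 0.05. Each week compared 4 HFD with 4 CD mice, and mean diet effects and week terms came from 1 fit of 48 libraries per tissue. The test was checked on simulated data, and Python 3.11.15 was used for tables and figures. Likeness is Pearson's r of deviations from group means, with the first 3 genes listed, and of each related list the 4 genes called at the most weeks, then by mean diet effect, were named, except that some are not reported here. The 9 genes and all lists were chosen with earlier results of these data known.

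Mouse numbers tie the tissues, since islets and liver came from the same animal. Over 9024 genes, the deviations of a mouse's tissues correlated with a median r of 0.18, from -0.13 to 0.33, and in 36 of 48 mice above 0.1. Between diets no number pairs the mice. Labels give separate animals, so p-values measure the spread between mice.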

Additional observations from a re-analysis of the deposited data

Results flagged for a closer look

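In 9 of 157 groups of 4 mice, 1 library stood far from the other 3 by Dixon's test at 95%, and chance alone gives about 1 in 20 groups. Of these, 7 were in liver. Acnat1 was at 39.2 FPKM in the liver of CD205 at week 8, with the others between 20.84 and 23.02, and at 20.81 FPKM in HFD313 at week 12, with the others between 32.2 and 33.82. Acot3 was at 56.72 FPKM in the liver of HFD213 at week 8 (others 9.34 to 15.81) and at 1.63 FPKM in HFD611 at week 24 (others 13.1 to 14.76). Acot13 was at 76.13 FPKM in the liver of CD304 at week 12 (others 61.39 to 63.73). Acnat2 was at 63.99 FPKM in the liver of CD501 at week 20 (others 32.62 to 35.38) and at 150.51 FPKM in HFD614 at week 24 (others 52.17 to 62.67). In islets, Acnat2 was at 0.58 FPKM in CD101 at week 4 (others 1.33 to 1.47), and Acot9 was at 4.24 FPKM in HFD316 at week 12 (others 3.24 to 3.36).

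The diet effect differed between the tissues, by the test of the difference itself, for 5 of the 9 genes, where 43.9% of all genes were called. Liver minus islet it was 0.67 for Acot1, 1.15 for Acot2, 0.26 for Acot9, 0.26 for Acot13 and 0.72 for Acnat2 on the log2(FPKM + 1) scale. The diet effect of Acot1 differed between weeks in islets (adjusted p = 0.0384).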

How the results depend on the processing

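Of 1075 alternative values of the 31 called differences, 1043 kept their direction and call, 31 lost the call and 1 changed sign. This pools unlike contrasts. With 1 library left out, no mean effect or tissue difference lost its call, but several weekly calls were lost. Acot13 in liver at week 16 was lost in 6 of 8 such fits, and Acot9 in liver at week 12 and in islets at week 24 in 4 of 8 each. Acot9 in liver and Acot1 in islets at week 16 were lost in 0 of 8. Leaving out the libraries with over 100 FPKM of Ins2 (liver) or 10 FPKM of Alb (islets) was chosen after seeing the data. With 1 library left out, the number of the 9 genes called in liver was 1 to 6 at week 8, 0 to 4 at week 12, 1 to 2 at week 16, 0 to 2 at week 20 and 0 to 1 for diet by week, and in islets it was 0 to 2 at week 8, 0 to 1 at weeks 12 and 24 and 0 to 1 for diet by week. With all 12 groups of a tissue in 1 fit, 2 were called at weeks 12 and 20 in liver, and 1 at weeks 12 and 20 in islets. Without the Ins2 libraries 1 was called in liver at week 16, and without the Alb libraries 1 in islets at week 12 and 0 for diet by week. With the insulin genes left out of the islet total, 2 were called at weeks 12 and 16 and for diet by week and 3 for the difference between tissues, and Acot2 changed sign in the islet mean effect (0.000681). In that setting the genes called of all tested went from 988 to 6180 at week 16. For the islet mean effect they went from 4782 to 8053. They rose to 6681 at week 12, where the main fit called 4.53% of all genes, and from 526 to 3904 for diet by week. For the difference between tissues they fell from 5861 to 5145. The member counts at weeks 12 and 16 and for diet by week thus do not set the 9 genes apart. With no filter, 2 were called in islets at week 16, 7 for the mean effect and 0 for diet by week. The calls of all genes there went from 988 to 1637, from 4782 to 6127 and from 526 to 542. After median ratio scaling 2 were called in islets at week 16 and 0 at week 24, and with a pseudocount of 0.1, 0 for diet by week. The calls of all genes there went from 988 to 1244, from 972 to 765 and from 526 to 464. With the replicate block (the mouse), 8 genes differed between tissues and 5 in diet effect, and no call changed. The cause of these changes was not tested. Read depth is not known, so which low values depth limits cannot be given.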
